A study of Zea mays with 48 samples.

Results

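Embryos of maize (Zea mays) dissected by hand at 9 days after pollination (DAP) were compared with embryos dissected by hand at 7 DAP, by sequencing of messenger RNA. The 12 libraries, 6 at 9 DAP and 6 at 7 DAP, were taken from a series of 48 by their age and tissue labels, and no measured value was used to choose them. The embryos were F1 hybrids of the inbred lines B73 and Mo17. BM embryos had B73 as seed parent and Mo17 as pollen parent, and MB embryos had Mo17 as seed parent and B73 as pollen parent. There were 3 replicates each of BM at 9 DAP, MB at 9 DAP, BM at 7 DAP and MB at 7 DAP. Per the labels, a replicate was 1 tube of many pooled embryos from at least 3 ears, with fewer embryos to a tube at 9 DAP than at 7 DAP. An error given here is therefore the spread between pools and says nothing of the spread between single embryos. An SD over the 6 libraries of an age also holds the difference between BM and MB. The other libraries of the series, embryos of other ages, embryos cut out by laser and endosperm (the storage tissue beside the embryo), enter only where they are named.

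In the first days after pollination the maize embryo sets apart a suspensor, a shoot pole and the scutellum, the broad single cotyledon that lies against the endosperm. The shoot meristem becomes a distinct group of cells at its side, and the scutellum enlarges and later fills with oil, globulins and phytate. Starch and zeins, the main reserves of the kernel, are laid down mostly in the endosperm, although embryo cells also make some starch.

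Total counts per library ran from 12729767 to 18962910 at 9 DAP and from 12098272 to 17757529 at 7 DAP. Across genes the replicates of a group correlated at 0.966 to 0.991 (Pearson's r of log2 values, genes being no independent replicates). The first principal component held 53% of the variance. On it the BM and MB libraries at 9 DAP lay between 38.8 and 71.7, the MB libraries at 7 DAP at -28.0, -26.2 and -43.1, and the BM libraries at 7 DAP between -84.4 and -70.5. Replicate 3 of MB at 7 DAP stood apart from its own group on the second component, at 10.5 against -47.3 and -48.5. Replicate 3 of MB at 9 DAP did so too, at -31.7 against 19.7 and 30.7. Embryo genes were present at both ages. lec1, a seed regulator of the NF-YB type, was at 15.5 to 53.6 CPM (counts scaled to the library total) at 9 DAP, against 55.2 to 73.7 CPM at 7 DAP, against a mean of 0.334 CPM in the endosperm libraries of 5 DAP. kn1, the homeobox gene that marks the shoot meristem, was at 26.4 to 44.6 CPM at 9 DAP, against 63.1 to 86.4 CPM at 7 DAP, against a mean of 0.105 CPM in endosperm. Not every embryo gene was low in endosperm. The homeobox gene wox2A had a mean of 35.8 CPM there, against at most 9.64 CPM in the 12 embryo libraries. ocl1, another homeobox gene, had 114 CPM there, against at most 94.6 CPM. vp1 and ole1 were also detected in endosperm, ole1 at a mean of 73.7 CPM. lec1 and kn1 thus set embryo apart from endosperm, and these other genes did so less or not at all.

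Transcripts of endosperm genes were in every library, at levels that differed between replicates. The 16 zein genes summed to 874, 451 and 395 CPM in BM and 169, 76.6 and 55.1 CPM in MB at 9 DAP, against 85.9, 82.7 and 56.2 CPM in BM and 16.9, 11.2 and 147 CPM in MB at 7 DAP. Means in endosperm at 5 DAP were 1320 CPM in BM and 683 CPM in MB. There 8 of the 16 genes in BM and 11 in MB had no read in any of the 3 libraries. In embryos at 9 DAP this was so for 0 in BM and 1 in MB. The series held no endosperm of 7 or 9 DAP, so these means give no scale of the endosperm in the embryo libraries. The 21 genes of the endosperm transfer layer and embryo-surrounding region summed to 292, 1540 and 1200 CPM in BM and 1930, 2020 and 1650 CPM in MB at 9 DAP, against 3500, 2860 and 3240 CPM in BM and 700, 465 and 3240 CPM in MB at 7 DAP. Their means in endosperm at 5 DAP were 3610 CPM in BM and 639 CPM in MB, so every MB embryo library at 9 DAP was above the MB endosperm mean. Replicate 3 of MB at 7 DAP was thus the highest of its group for both lists, and replicate 1 of BM at 9 DAP was the highest for zeins and the lowest for transfer-layer genes. The 9 genes of seed coat, nucellus and ovule summed to 81.0 to 127 CPM at 9 DAP, against 108 to 159 CPM at 7 DAP. In endosperm at 5 DAP their means were 206 CPM in BM and 217 CPM in MB. The part of these tissues in the results below was not tested. In bulk tissue, fewer cells of a type and less RNA per cell cannot be told apart.

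**Figure D1:**
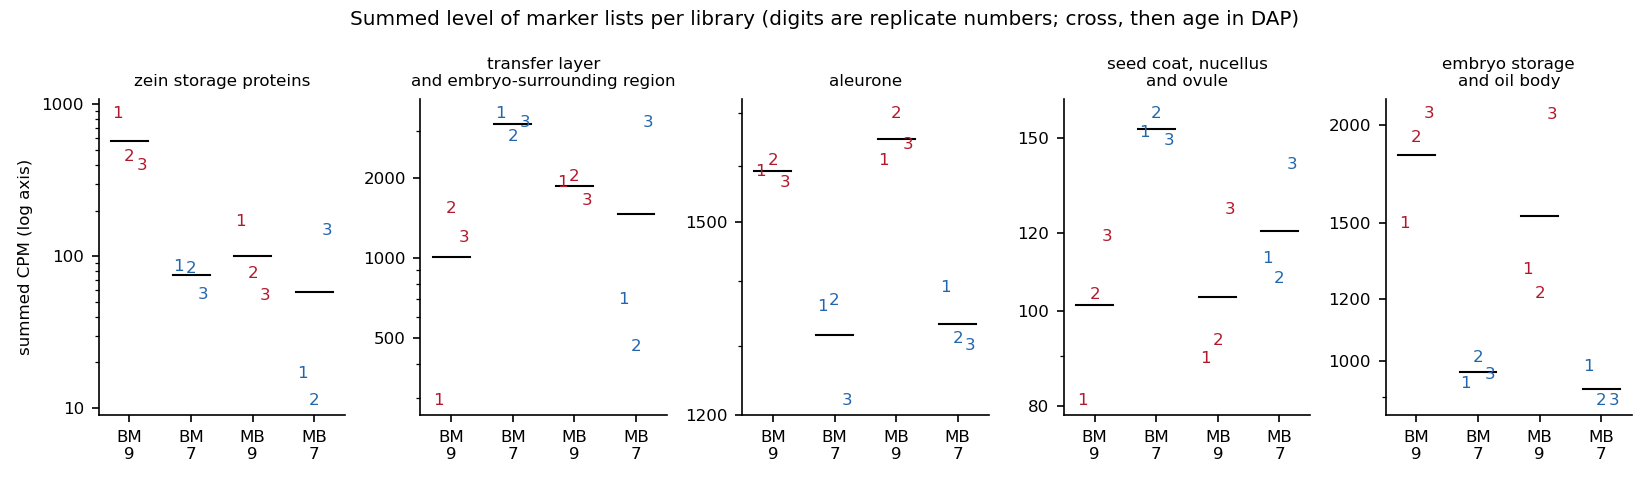
Summed CPM (log axis) of 5 marker lists in each library, for BM at 9 and 7 DAP and MB at 9 and 7 DAP. Digits are replicate numbers and bars are group means. Embryo storage and oil body genes were higher in every library at 9 DAP, at 1220 to 2070 CPM, than at 7 DAP, at 891 to 1010 CPM. Aleurone sums did not overlap either, at 1570 to 1700 CPM at 9 DAP, against 1220 to 1390 CPM at 7 DAP. Zein, transfer-layer and seed coat sums overlapped between the ages. The sum of embryo storage and oil body genes is not particular to embryos. Its means in endosperm at 5 DAP, not drawn, were 3630 CPM in BM and 3510 CPM in MB.

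With both crosses in 1 fit and cross as an additive term, 8722 of 22316 genes tested (39.1%) differed between 9 and 7 DAP at an adjusted p under 0.05. Of these, 4259 (19.1%) were higher at 9 DAP and 4463 (20.0%) were lower. A log2 change of 1 or more in size was reached by 2522 genes (11.3%), of which 745 (3.34%) were higher and 1777 (7.96%) were lower at 9 DAP, so the large changes were mostly decreases. The levels of 4050 genes (18.1%) did not overlap between the 6 libraries of each age. The split between rises and falls depended on the values used. With limma on log2(FPKM + 1), 2697 genes were higher and 4374 lower (38.1% higher, against 48.8% in the count fit), and 1 count fit over all 48 libraries called 1713 higher and 3018 lower.

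In BM alone 7848 of 21664 genes (36.2%) were called, and in MB alone 2690 of 20929 (12.9%). A change is said to hold in each cross where a gene was called in the same direction in the fit of both crosses, in BM alone and in MB alone. That was so for 2301 genes (10.3% of those tested), 983 higher (4.4%) and 1318 lower (5.91%) at 9 DAP. With limma on log2(FPKM + 1) rises were 26.3% of the calls in MB, against 43.3% in the count fit, and 28.6% of the genes that held, against 42.7%. The 2301 genes made up 26.4% of the genes called with both crosses together, and among the 2522 large changes 1217 held (48.3%). Of the other called genes, 4302 were called in BM and not in MB, 309 in MB and not in BM, and 1810 in neither alone. The direction was nonetheless shared: of 8160 called genes that could be tested in each cross, 8155 (99.9%) had the same sign in BM and MB, a count that the additive fit itself favours. The lower count in MB is no sign that MB genes did not change. The test of the difference itself, the interaction of age and cross, called 156 genes (0.699%), with 2704 at an unadjusted p under 0.05. Among called genes the median absolute log2 fold change was 0.44 in MB and 0.62 in BM, and the median SD of replicates in log2(CPM + 1) was 0.173 in MB and 0.151 in BM at 9 DAP and 0.159 in MB and 0.137 in BM at 7 DAP.

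Single libraries moved the counts of MB more than those of BM. Without replicate 3 of MB at 9 DAP, 9395 genes were called with both crosses, 3584 in MB alone, and 2724 held in each cross. Without replicate 3 of MB at 7 DAP, 8174 genes were called with both crosses, 2042 in MB alone, and 1685 held in each cross. The number that held fell to 1132 without replicate 1 of MB at 9 DAP, 1478 without replicate 2 of MB at 9 DAP and 1375 without replicate 1 of MB at 7 DAP. In MB alone those omissions left 1212, 1621 and 1478 genes.

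**Figure D2:**
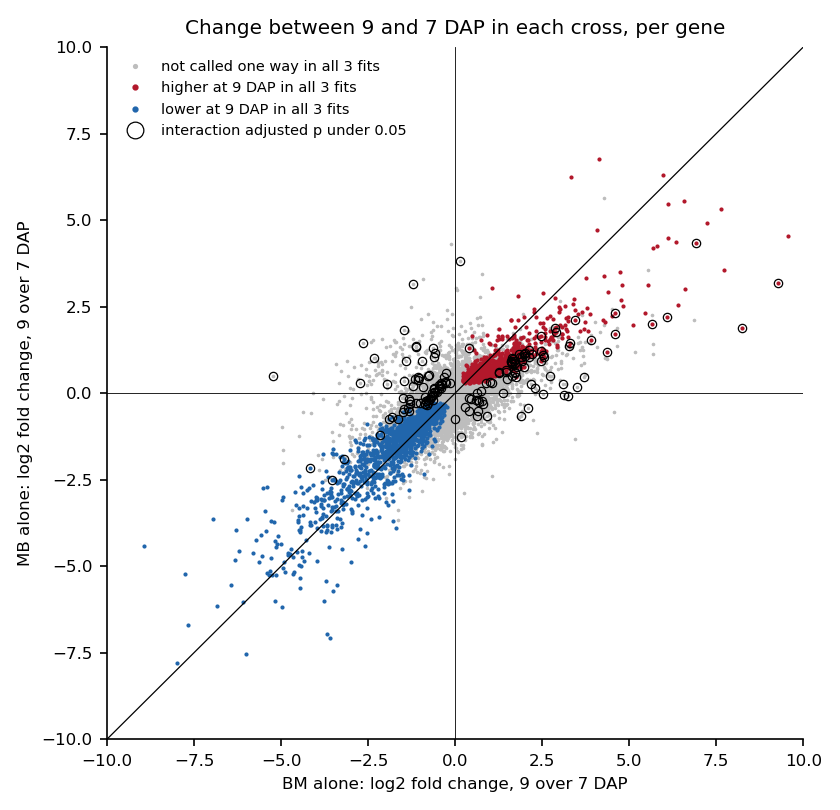
Log2 fold change of 9 over 7 DAP for each gene tested in both crosses, with BM alone on the x axis and MB alone on the y axis. Red and blue points are the 983 higher and 1318 lower genes that held in each cross, rings mark genes called in the interaction, and the diagonal is an equal change. Points lie along the diagonal, more of the held genes having the larger change in BM (1642) than in MB (659).

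Named gene lists of 30 families and pathways were matched by gene symbol. As a share of its own tested members, starch synthesis had the most rises, with 14 of 16 genes higher and none lower at 9 DAP. Endosperm storage regulators (5 of 8 higher), aleurone genes (7 of 12), fatty acid and oil synthesis (5 of 9) and phosphate and inositol (6 of 12) were also above the 19.1% of all genes that rose. On the other side stood ribosomal proteins, with 28 of 35 lower, meristem patterning, with 14 of 24 lower, and jasmonate and defence, with 22 of 43 lower, each above the 20.0% of all genes that fell. The median log2 fold change was 0.90 for starch synthesis, -0.44 for ribosomal proteins and -0.94 for meristem patterning, against 0.00 over all genes tested. Lists say nothing of the genes without a symbol, which are most of the genome.

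**Figure D3:**
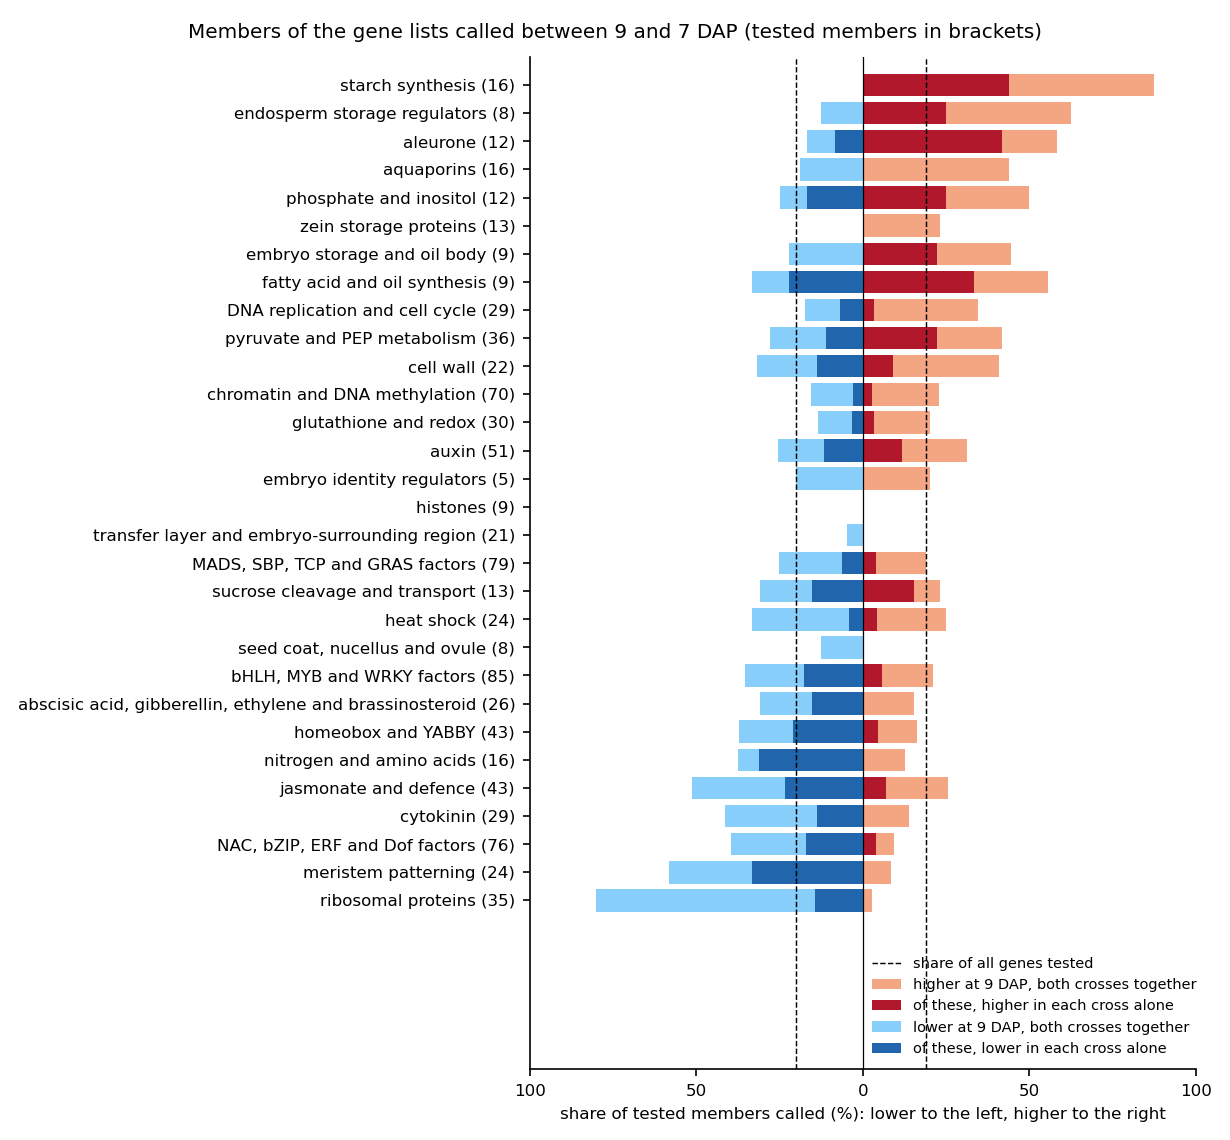
Share of the tested members of each list (number in brackets) that were called higher (right) or lower (left) at 9 DAP than at 7 DAP with both crosses together. Dark bars are the members that held in each cross, and dashed lines are the shares of all genes tested, 19.1% higher and 20.0% lower.

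Of 9 tested storage protein and oil body genes, 4 were higher at 9 DAP, 2 lower and 3 not called, and glb2 and ole17 held in each cross. Of the 3 not called, leg1 (GRMZM2G174883) was called higher in 4 alternative settings, among them DESeq2 (log2 fold change 1.17, adjusted p = 0.023). It was also called in 2 omissions of a single library. glb2 (GRMZM2G026703), a globulin of the embryo, was at 128, 95.4 and 111 CPM in BM and 71.5, 112 and 97 CPM in MB at 9 DAP, against 0.676, 0.319 and 1.23 CPM in BM and 3.39, 4.97 and 1.52 CPM in MB at 7 DAP. Every library at 9 DAP stood far above every library at 7 DAP, and glb2 was not detected in endosperm at 5 DAP. Its log2 fold change was 5.80 ± 0.45 (SE, adjusted p = 7.9e-06), with 4.90 in MB and 7.23 in BM. ole17 (GRMZM2G480954), an oleosin that coats oil bodies, was at 18.4, 22.8 and 24 CPM in BM and 8.18, 14.9 and 24.3 CPM in MB at 9 DAP, against 0.113, 0.0638 and 0.796 CPM in BM and 0.413, 1.54 and 0.233 CPM in MB at 7 DAP (log2 fold change 5.20 ± 0.55, adjusted p = 3.5e-05).

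Other storage genes were called with both crosses but not in MB alone. The oleosin ole1 (GRMZM2G337229) was at 441, 827 and 873 CPM in BM and 439, 370 and 884 CPM in MB at 9 DAP, against 36.8, 38.9 and 33.8 CPM in BM and 184, 185 and 76.9 CPM in MB at 7 DAP. The ages did not overlap (log2 fold change 3.12 ± 0.54, adjusted p = 0.0014), but in MB alone the adjusted p was 0.093. glb1 (GRMZM2G067919), another globulin, was at 69.8, 76 and 158 CPM in BM and 122, 121 and 376 CPM in MB at 9 DAP, against 2.2, 2.94 and 3.4 CPM in BM and 108, 139 and 37.5 CPM in MB at 7 DAP. Here the MB libraries of both ages overlapped, and the call with both crosses (2.82 ± 0.85, adjusted p = 0.025) was lost without any 1 of the BM libraries at 7 DAP or without replicate 3 of MB at 9 DAP. tip3b (GRMZM2G103983), an aquaporin of the tonoplast, averaged 44.2 ± 30.8 CPM at 9 DAP, against 5.74 ± 7.55 CPM at 7 DAP (SD, n = 6 each; log2 fold change 3.58 ± 0.96, adjusted p = 0.015) and, of the single crosses, was called in BM only. The members called lower were the dehydrins dhn1, at means of 0.340 CPM at 9 DAP, against 1.58 CPM at 7 DAP, and dhn2. Their calls were lost in 7 (dhn1) and 10 (dhn2) of the 12 omissions of a single library, with adjusted p up to 0.14 and 0.095. RAB15 (GRMZM2G165901), with a log2 fold change of -0.08 ± 0.08, carried most of the list's sum at 7 DAP.

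Genes of fatty acid synthesis moved in both directions. ACC1 (GRMZM5G858094), an acetyl-CoA carboxylase that makes the building block of fatty acids, was at 1790, 1570 and 1440 CPM in BM and 1350, 1640 and 1240 CPM in MB at 9 DAP, against 453, 471 and 391 CPM in BM and 666, 779 and 509 CPM in MB at 7 DAP (log2 fold change 1.52 ± 0.15, adjusted p = 5e-06). FAD2 (GRMZM2G056252), which desaturates oleate outside the plastid, averaged 407 ± 71.7 CPM at 9 DAP, against 187 ± 37.5 CPM at 7 DAP, and fae1 (GRMZM2G022558) 151 ± 15.8 CPM and 92.7 ± 12.5 CPM at the same ages (SD, n = 6 each). These genes held in each cross, with log2 fold changes of 1.16 ± 0.14 and 0.74 ± 0.09. A second gene of the symbol fad2 (GRMZM2G064701) rose by 1.88 ± 0.25 and missed the threshold in MB alone (adjusted p = 0.056). The genes fad7 and fad8, of plastid desaturases, went the other way. fad7 (GRMZM2G128971) averaged 18.4 ± 0.963 CPM at 9 DAP, against 90.6 ± 37.8 CPM at 7 DAP, and fad8 (GRMZM2G074401) 18.0 ± 2.43 CPM at 9 DAP, against 42.9 ± 18.0 CPM at 7 DAP. Both falls held in each cross. DGAT1-2 (GRMZM2G169089) was not called, but was called higher in 4 alternative settings, among them DESeq2 (log2 fold change 0.91, adjusted p = 0.017), and in 1 omission of a single library. SAD1 (GRMZM5G852502), thl1 (GRMZM2G085474, named thiolase1) and act1 (GRMZM2G126010, an actin) also rose and held, and they are described with the differences between the crosses.

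The AP2/ERF factors EREB85 (GRMZM2G124524) and EREB20 (GRMZM2G174834) were called in BM alone and not in MB alone. EREB85 was at 428, 402 and 340 CPM in BM and 366, 331 and 282 CPM in MB at 9 DAP, against 44, 47.7 and 47.1 CPM in BM and 182, 320 and 110 CPM in MB at 7 DAP. At 7 DAP every MB library was above every BM library, and 1 of them lay within the range of MB at 9 DAP. The log2 fold change was 0.73 in MB (adjusted p = 0.33) and 3.05 in BM (adjusted p = 2.2e-08), and the interaction missed the threshold at -2.32 ± 0.46 (adjusted p = 0.071). EREB20 had 0.81 in MB and 3.60 in BM, with an interaction of -2.79 ± 0.70 (adjusted p = 0.14), and its call with both crosses was lost without any 1 of the BM libraries at 7 DAP.

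Genes at the node of pyruvate and phosphoenolpyruvate (PEP), from which carbon is drawn into oil and amino acids, rose in abundance while other members of the same families fell. pdk1 (GRMZM2G306345), a pyruvate orthophosphate dikinase, was at 797, 720 and 722 CPM in BM and 650, 665 and 691 CPM in MB at 9 DAP, against 72, 77 and 55.4 CPM in BM and 188, 185 and 113 CPM in MB at 7 DAP (log2 fold change 2.77 ± 0.27, adjusted p = 2e-05). PPDK2 (GRMZM2G097457), which encodes the same enzyme, rose by an equal amount in both crosses, 1.57 in MB and 1.54 in BM. It averaged 482 ± 96.2 CPM at 9 DAP, against 166 ± 33.8 CPM at 7 DAP (SD, n = 6 each). In endosperm at 5 DAP the mean was 1340 CPM for PPDK2 and 329 CPM for pdk1.

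PPCK1 (GRMZM2G178074), a kinase that activates PEP carboxylase, rose by 2.29 ± 0.31 on the log2 scale, and pep7 (GRMZM2G069542), a PEP carboxylase, by 0.91 ± 0.10. The malic enzymes me4 (GRMZM2G118770) and me2 (GRMZM2G122479) rose by 1.64 ± 0.19 and 1.32 ± 0.11. Per transcript length me2 was the more abundant, at 668 FPKM at 9 DAP and 278 FPKM at 7 DAP, against 82.6 and 29.2 FPKM for me4 at the same ages. All of these held in each cross. In contrast ME1 (GRMZM2G085019) averaged 11.3 ± 1.56 CPM at 9 DAP, against 29.1 ± 7.23 CPM at 7 DAP, PK (GRMZM2G003883) 29.8 ± 3.80 CPM and 83.8 ± 24.8 CPM, and Pep1 (GRMZM5G899080) 2.25 ± 0.379 CPM and 6.40 ± 1.14 CPM. Those 3 decreases held in each cross too. In the whole list 15 of 36 genes were higher and 10 lower.

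Starch genes rose almost as a block. AGP2 (GRMZM2G027955), a symbol of ADP-glucose pyrophosphorylase, the enzyme that makes the glucose donor of starch, was at 557, 442 and 346 CPM in BM and 473, 519 and 432 CPM in MB at 9 DAP, against 61.5, 67.2 and 60.7 CPM in BM and 111, 136 and 88.2 CPM in MB at 7 DAP (log2 fold change 2.48 ± 0.17, adjusted p = 5.2e-07). The starch phosphorylase pho1 (GRMZM2G074158) was at 601, 430 and 336 CPM in BM and 338, 368 and 248 CPM in MB at 9 DAP, against 76.9, 68.6 and 79 CPM in BM and 83, 90.9 and 103 CPM in MB at 7 DAP (2.22 ± 0.18, adjusted p = 3.2e-06). Neither overlapped between ages. The branching enzyme ae1 (GRMZM2G032628), Agp2 (GRMZM2G106213), the starch synthases du1 (GRMZM2G141399) and ss1 (GRMZM2G129451), and 1 of 2 gene models of the branching enzyme sbe1 (GRMZM2G088753) held in each cross as well, with log2 fold changes of 1.26, 1.24, 0.89, 0.60 and 0.87.

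Of the starch genes best known from endosperm, wx1, sh2 and bt1 were called with both crosses and in BM alone but not in MB alone. wx1 (GRMZM2G024993), the granule-bound starch synthase, was at 23.4, 18.4 and 14.2 CPM in BM and 6.41, 3.92 and 2.9 CPM in MB at 9 DAP, against 1.52, 0.638 and 0.868 CPM in BM and 0, 0.403 and 3.5 CPM in MB at 7 DAP. sh2 (GRMZM2G429899), the large subunit of the endosperm pyrophosphorylase, averaged 41.6 ± 22.1 CPM at 9 DAP, against 12.3 ± 6.82 CPM at 7 DAP, and bt1 (GRMZM2G144081), the transporter of ADP-glucose, 11.6 ± 5.96 CPM and 3.08 ± 1.76 CPM. For these 3 genes the highest library at 7 DAP was replicate 3 of MB, the library with the highest zein sum of that age. At 9 DAP every BM library was above every MB library for wx1, bt1 and the zein sum, but not for sh2. AGP2 had 461 ± 73.8 CPM in embryos at 9 DAP and a mean of 20.6 CPM in endosperm at 5 DAP. The list's uncalled members were a second model of the symbol ae1 and ss2 (GRMZM2G152908), a symbol used of both starch synthase and sucrose synthase, at 3640 ± 293 CPM at 9 DAP, against 3180 ± 749 CPM at 7 DAP.

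Among genes of sucrose use, the sucrose synthase sh1 (GRMZM2G089713) fell to 214, 137 and 147 CPM in BM and 138, 126 and 135 CPM in MB at 9 DAP, against 401, 414 and 396 CPM in BM and 293, 281 and 287 CPM in MB at 7 DAP (-1.17 ± 0.10, adjusted p = 5.7e-07). The invertase ivr2 (GRMZM2G089836) fell by 2.21 on the log2 scale at low levels. The sucrose transporter sut4 (GRMZM2G307561) and the hexokinase hex2 (GRMZM2G432801) rose by 0.91 ± 0.10 and 0.77 ± 0.08. These 4 changes held in each cross, in a list of 13 tested genes with 3 higher and 4 lower.

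Genes of phytate, the phosphorus store of the scutellum, rose at several steps of its synthesis and storage. mips2 (GRMZM2G004528) and the gene listed as lpa1 with the synonym INO1 (GRMZM2G155242) encode inositol phosphate synthases, the first step. mips2 was at 1180, 1230 and 1180 CPM in BM and 1780, 1920 and 1940 CPM in MB at 9 DAP, against 452, 525 and 301 CPM in BM and 916, 1060 and 568 CPM in MB at 7 DAP. MB lay above BM at both ages, and the change was alike, 1.20 in MB and 1.47 in BM. GRMZM2G155242 rose by 1.14 ± 0.10. The other lpa1 (GRMZM5G820122, synonym MRP4), an ABC transporter for phytate, was at 620, 546 and 497 CPM in BM and 553, 628 and 522 CPM in MB at 9 DAP, against 128, 152 and 105 CPM in BM and 208, 270 and 127 CPM in MB at 7 DAP (1.83 ± 0.19, adjusted p = 1.9e-05). These 3 genes held in each cross. The kinases lpa3 (GRMZM2G361593) and ipk1A (GRMZM2G067299) rose by 1.38 ± 0.28 and 1.37 ± 0.25 and were called in BM alone and not in MB alone (adjusted p = 0.24 and 0.095), and lpa2 was not called (0.61 ± 0.32, adjusted p = 0.16). Phosphate transporters fell: pht7 (GRMZM2G112377) averaged 0.282 ± 0.201 CPM at 9 DAP, against 8.37 ± 6.09 CPM at 7 DAP, and pht2 (GRMZM2G154090) 2.22 ± 1.11 CPM and 6.98 ± 1.74 CPM. An exception was pht9 (GRMZM2G070087), at 1.06 ± 0.483 CPM at 9 DAP, against 0.0321 ± 0.0552 CPM at 7 DAP.

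**Figure D4:**
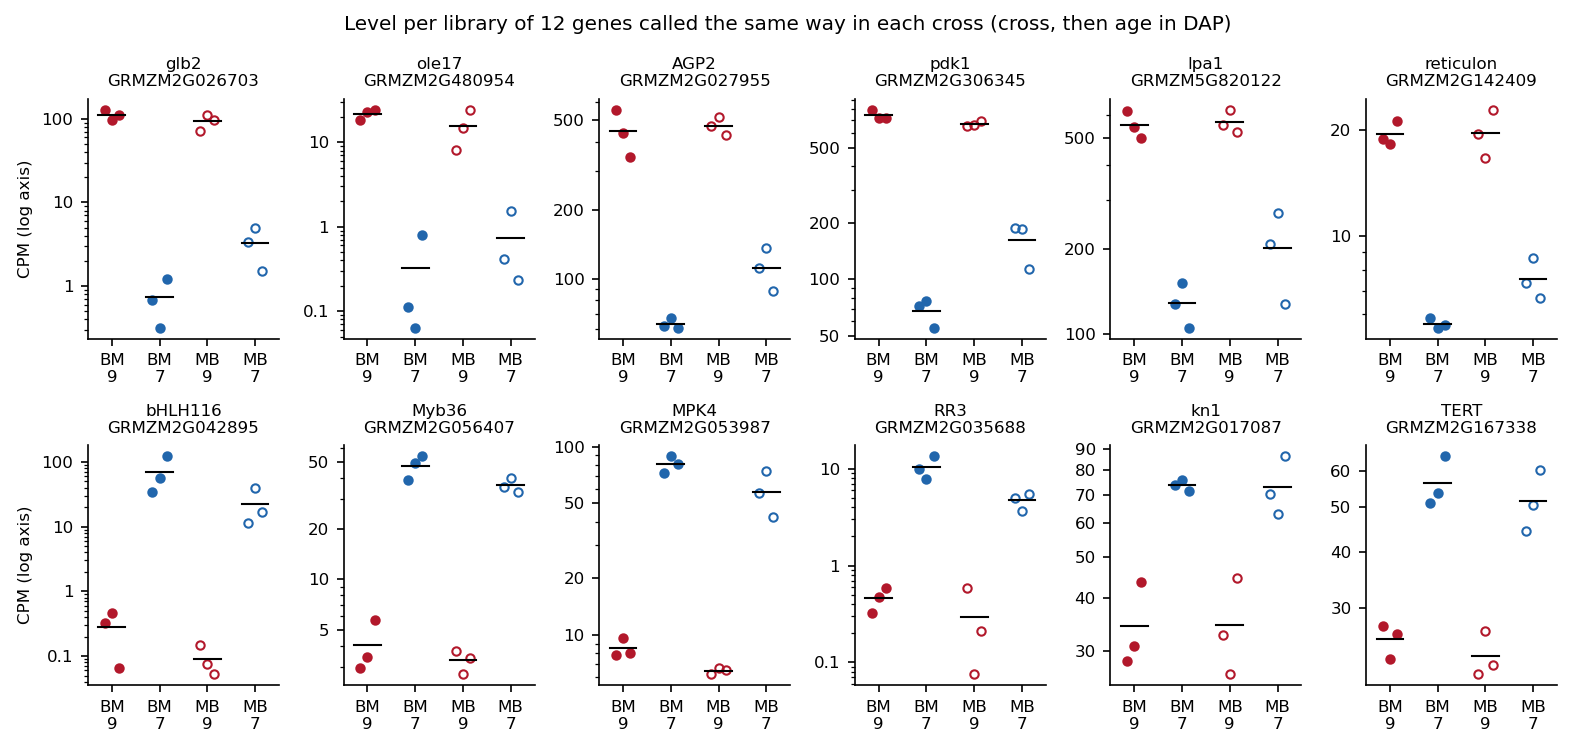
Level of 12 genes in each library (CPM, log axes that differ between panels), for BM at 9 and 7 DAP and MB at 9 and 7 DAP. Points are replicates and bars are means. The 6 genes of the upper row were higher and the 6 of the lower row lower at 9 DAP in every library, without overlap between the ages, and all 12 held in each cross.

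The other rises chosen by the naming rule were reticulon (GRMZM2G142409), named for proteins that shape the endoplasmic reticulum, Hb2 (GRMZM2G168898), HB2 (GRMZM2G161435), expB3 (GRMZM2G474194), a beta-expansin of the cell wall, and Nkd2 (GRMZM5G884137). reticulon averaged 19.6 CPM over BM and 19.7 CPM over MB at 9 DAP, and 5.64 CPM over BM and 7.56 CPM over MB at 7 DAP (1.61 ± 0.12, adjusted p = 1.7e-07). The log2 fold changes of Hb2, HB2 and expB3 were 1.76 ± 0.14, 1.71 ± 0.15 and 1.65 ± 0.22. All 4 held in each cross.

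Among the largest decreases were those of transcription factors. bHLH116 (GRMZM2G042895) was at 0.32, 0.471 and 0.065 CPM in BM and 0.147, 0.0754 and 0.0527 CPM in MB at 9 DAP, against 34.6, 56 and 122 CPM in BM and 11.5, 38.9 and 16.8 CPM in MB at 7 DAP (log2 fold change -7.93 ± 0.64, adjusted p = 8e-06). Myb36 (GRMZM2G056407) was at 2.95, 3.46 and 5.72 CPM in BM and 3.76, 2.72 and 3.38 CPM in MB at 9 DAP, against 38.7, 49.3 and 53.9 CPM in BM and 35.3, 40.2 and 33.2 CPM in MB at 7 DAP (-3.48 ± 0.15, adjusted p = 2.1e-09). The fall of Myb36 was even across replicates and of equal size in both crosses, -3.40 in MB and -3.56 in BM. bHLH76 (GRMZM2G112629), bZIP17 (GRMZM2G103647), WRKY43 (GRMZM2G148087) and NAC1 (GRMZM2G347043) fell by 3.91, 4.67, 5.03 and 2.22 on the log2 scale, and each held in each cross. In the 2 lists of such factors, 30 of 76 NAC, bZIP, ERF and Dof genes fell and 7 rose, and 30 of 85 bHLH, MYB and WRKY genes fell and 18 rose. Rises included bHLH165 (GRMZM2G145579), at 6.55 ± 0.970 CPM at 9 DAP, against 1.50 ± 0.728 CPM at 7 DAP, and nac5 (GRMZM2G041746), at 7.79 ± 0.998 CPM and 3.14 ± 0.973 CPM, both held in each cross.

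NF-YA4, a subunit of the CCAAT-box factor NF-Y to which lec1 also belongs, is covered by 2 gene models of 1 annotated gene. GRMZM5G853836 was at 18.7, 22.5 and 30.6 CPM in BM and 23.9, 24.4 and 22.9 CPM in MB at 9 DAP, against 119, 135 and 111 CPM in BM and 119, 116 and 149 CPM in MB at 7 DAP (-2.36 ± 0.11, adjusted p = 2.1e-09). GRMZM2G008250 fell by 1.75 ± 0.15, and since the models may share reads they count as 1 observation. lec1 (GRMZM2G011789) averaged 31.0 ± 13.4 CPM at 9 DAP, against 62.1 ± 7.95 CPM at 7 DAP (-1.01 ± 0.23, adjusted p = 0.0053), was called in MB alone (-1.28, adjusted p = 0.032) and missed the threshold in BM alone (-0.76, adjusted p = 0.12). vp1 (GRMZM2G133398), the regulator of maturation that answers to abscisic acid, had 137 ± 38.6 CPM at 9 DAP, against 148 ± 29.1 CPM at 7 DAP, a difference within the spread (-0.08 ± 0.20, adjusted p = 0.79).

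The MAP kinase MPK4 (GRMZM2G053987) fell to 7.81, 9.58 and 8.06 CPM in BM and 6.19, 6.71 and 6.49 CPM in MB at 9 DAP, against 72.9, 89 and 81.3 CPM in BM and 56.6, 74.2 and 42.1 CPM in MB at 7 DAP (-3.18 ± 0.13, adjusted p = 2e-09). saf1 (GRMZM2G042639, synonym In2-1) and the glutathione S-transferase gst23 (GRMZM2G416632) fell by 4.26 ± 0.35 and 3.44 ± 0.28. Wall genes were among the decreases: CslF6-1 (GRMZM2G110145), for the synthase of mixed-linkage glucan, averaged 8.99 CPM at 9 DAP, against 47.4 CPM at 7 DAP, HRGP (GRMZM2G168651), a hydroxyproline-rich glycoprotein, 99.2 ± 51.4 CPM and 490.0 ± 178 CPM, and Cel20 (GRMZM2G453565), a cellulase, 21.9 CPM and 79.4 CPM. All held in each cross. In the wall list as a whole 9 of 22 genes rose and 7 fell.

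Of 24 tested genes of meristem patterning, 14 were lower at 9 DAP, 2 higher and 8 not called. kn1 (GRMZM2G017087) was at 28.4, 30.8 and 43.7 CPM in BM and 32.7, 26.4 and 44.6 CPM in MB at 9 DAP, against 73.8, 76 and 71.6 CPM in BM and 70.3, 63.1 and 86.4 CPM in MB at 7 DAP (-1.06 ± 0.14, adjusted p = 4.9e-05). No library of 9 DAP reached the lowest of 7 DAP. The change was -1.02 in MB alone and -1.12 in BM alone, and the call was lost only in the fit over all 48 libraries (-1.08). wox2A (GRMZM2G108933), a homeobox gene of the early apical embryo, averaged 1.85 ± 0.233 CPM at 9 DAP, against 7.00 ± 2.26 CPM at 7 DAP, and its endosperm level was higher, 35.8 CPM. CUC2 (GRMZM2G393433), of the NAC factors that set organ boundaries, and zfl1 (GRMZM2G098813), the maize LEAFY homologue, fell by 2.68 ± 0.39 and 2.22 ± 0.30. HB85, wox9C, wox9A and HB82 also held in each cross, so that 8 of 24 genes did. The receptor gene TD1 (GRMZM2G300133) fell by 1.09 ± 0.24 and, of the single crosses, was called in MB only. The epidermal homeobox genes ocl3 (GRMZM2G116658) and ocl4 (GRMZM2G123140) fell by 1.27 ± 0.13 and 0.86 ± 0.11 and the YABBY gene ZYB15 (GRMZM2G529859) by 1.00 ± 0.10, while YAB11 (GRMZM2G141955) rose by 1.27 ± 0.19. Each of these 4 held in each cross. The list of 43 homeobox and YABBY genes had 16 lower, 7 higher and 20 not called, with a median of -0.15.

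Several response regulators of cytokinin, which act early in its signalling, fell steeply. RR3 (GRMZM2G035688) was at 0.32, 0.471 and 0.585 CPM in BM and 0.589, 0.0754 and 0.211 CPM in MB at 9 DAP, against 9.91, 7.85 and 13.5 CPM in BM and 5.04, 3.69 and 5.49 CPM in MB at 7 DAP (-4.26 ± 0.30, adjusted p = 1.4e-07). RR11 (GRMZM2G040736) and crr2 (GRMZM2G392101) fell by 4.36 ± 0.41 and 4.45 ± 0.44, to means of 0.275 and 0.287 CPM at 9 DAP, against 5.54 and 5.83 CPM at 7 DAP. RR9 (GRMZM2G060485) fell by 1.21 ± 0.13. These 4 held in each cross, and in the list of 29 genes 12 were lower and 4 higher.

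The auxin list had 16 of 51 genes higher and 13 lower, with a median of 0.04. Auxin response factors, which bind the promoters of auxin genes, made up many of the rises that held in each cross: ARF30 (GRMZM2G475882) averaged 20.7 ± 1.90 CPM at 9 DAP, against 8.08 ± 2.46 CPM at 7 DAP, ARF9 (GRMZM2G073750) 52.0 ± 4.86 CPM and 32.1 ± 4.07 CPM, and ARF18 (GRMZM2G035405) 114 ± 8.14 CPM and 72.0 ± 7.81 CPM. The efflux carrier PIN1a (GRMZM2G098643) fell to 16.8, 28.7 and 33.5 CPM in BM and 20.3, 16.9 and 28.7 CPM in MB at 9 DAP, against 61.7, 70.9 and 62.6 CPM in BM and 46.9, 43.2 and 47.9 CPM in MB at 7 DAP (-1.15 ± 0.17, adjusted p = 0.00018). IAA12 (GRMZM2G128421), a repressor of the Aux/IAA family, fell by 2.52 ± 0.18, and AUX9, AUX10 and AUX22 by 3.54, 1.88 and 2.56. All of these held in each cross.

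Jasmonate and defence genes mostly fell. ZIM4 (GRMZM2G036351), of the repressors of jasmonate signalling, was at 0 to 0.128 CPM in the libraries at 9 DAP and at 4.51, 5.23 and 10.1 CPM in BM and 1.16, 5.24 and 1.17 CPM in MB at 7 DAP (-6.11 ± 0.62, adjusted p = 5e-06). ts1 (GRMZM2G104843), a lipoxygenase of the jasmonate pathway, averaged 2.57 ± 0.749 CPM at 9 DAP, against 11.6 ± 4.76 CPM at 7 DAP, and the proteinase inhibitor MPI (GRMZM2G028393) 1.50 ± 1.18 CPM and 9.83 ± 7.82 CPM, with BM above MB at both ages. opr2 (GRMZM2G000236) fell by 2.91 ± 0.51. The symbol TPS9 belongs to 2 genes, GRMZM2G312521 and GRMZM2G122231, which fell by 2.60 ± 0.25 and 2.49 ± 0.23. The symbol is used of terpene synthases and of trehalose phosphate synthases, and the names table does not say which is meant. Genes of benzoxazinoid synthesis rose, BX3 (GRMZM2G167549) by 1.61 ± 0.27 and BX4 (GRMZM2G172491) by 1.58 ± 0.20 from low levels, and bx9 (GRMZM2G161335) fell by 1.55 ± 0.21. Every gene named in this paragraph held in each cross.

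Nitrogen genes that fell included asn3 (GRMZM2G053669), an asparagine synthetase, at 0.705, 0.314 and 0.52 CPM in BM and 0.368, 0.302 and 0.686 CPM in MB at 9 DAP, against 25.1, 30.6 and 14 CPM in BM and 4.13, 3.83 and 7.88 CPM in MB at 7 DAP (-4.58 ± 0.43, adjusted p = 6.2e-06). The glutamine synthetases GLN6, gln2, gln5 and gln4 fell by 2.59, 1.10, 0.85 and 0.65. These 5 held in each cross, of 16 tested genes with 6 lower and 2 higher.

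Ribosomal protein genes fell by small amounts. Of 35 tested, 28 were lower and 1 higher at 9 DAP, none by a log2 fold change of 1 or more, and the medians were -0.26 in MB and -0.64 in BM. rps12 (GRMZM2G063340) was at 248, 244 and 242 CPM in BM and 232, 242 and 249 CPM in MB at 9 DAP, against 405, 426 and 433 CPM in BM and 328, 300 and 356 CPM in MB at 7 DAP (-0.59 ± 0.08, adjusted p = 3.8e-05). The libraries of 9 DAP were nearly equal, and the crosses were separate at 7 DAP. rpl35 (GRMZM2G043279) fell by 0.68 ± 0.11, and with rps12 it is 1 of 5 ribosomal genes that held in each cross. TERT (GRMZM2G167338), the telomerase subunit, averaged 24.6 ± 2.53 CPM at 9 DAP, against 54.2 ± 7.38 CPM at 7 DAP. krp15 (GRMZM2G054418), of the inhibitors of cyclin-dependent kinases, was at 74.8 ± 6.99 CPM at 9 DAP, against 42.6 ± 5.83 CPM at 7 DAP, and cycD4 (GRMZM2G133413), a D-type cyclin, at 3.33 ± 0.923 CPM and 6.31 ± 0.876 CPM. The histone deacetylase HDT1 (GRMZM2G159032) fell by 0.44 ± 0.07. All of these held in each cross. In the list of DNA replication and cell cycle, 10 of 29 tested genes were higher, 5 lower and 14 not called, with a median of 0.04. In that of chromatin and DNA methylation, 16 of 70 were higher, 11 lower and 43 not called. None of 9 histone genes was called by edgeR, the lowest adjusted p being 0.47, and their log2 fold changes lay between -0.24 and 0.14.

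Of 8 endosperm storage regulators, 5 were higher and 1 (ohp2) lower at 9 DAP, and Nkd2 and Nkd1 held in each cross. Nkd2 was at 20.9, 24.1 and 31.4 CPM in BM and 22, 15.2 and 21.2 CPM in MB at 9 DAP, against 3.6, 6.32 and 2.61 CPM in BM and 8.27, 5.71 and 6.07 CPM in MB at 7 DAP (2.09 ± 0.25, adjusted p = 3.5e-05). It encodes a factor needed for aleurone, the outer layer of endosperm, where the 5 DAP level was 100 CPM. Nkd1 (GRMZM2G129261), its paralog, averaged 140 ± 18.6 CPM at 9 DAP, against 75.1 ± 16.3 CPM at 7 DAP. As paralogs, these genes may share reads. o2 (GRMZM2G015534), the activator of zein genes, rose to 2.55 ± 1.36 CPM at 9 DAP, against 0.460 ± 0.268 CPM at 7 DAP (2.36 ± 0.38, adjusted p = 0.00017), and was not called in MB alone (adjusted p = 0.079). Of 13 tested zein genes, 3 (gz16, gz50 and azs22-19) were called higher and none held in each cross. The call of gz50 was lost in 6 and that of azs22-19 in 8 of the 12 omissions of a single library. gz27 (GRMZM2G138727) was at 76.7, 180 and 167 CPM in BM and 30.1, 15.1 and 34.3 CPM in MB at 9 DAP, against 43.6, 38.2 and 25.8 CPM in BM and 13.1, 9.73 and 42.4 CPM in MB at 7 DAP, and was not called (1.19 ± 0.49, adjusted p = 0.082). It was called with DESeq2 (adjusted p = 0.034), without replicate 2 of MB at 9 DAP (0.046) and without replicate 3 of MB at 7 DAP (log2 fold change 1.69, adjusted p = 0.0034). Of 21 genes of the transfer layer and embryo-surrounding region, 1, ebe2, was called, lower at 9 DAP, and this call was lost in 9 of the 12 omissions of a single library (adjusted p up to 0.14). esr1 (GRMZM2G046086) was at 10.7, 90.9 and 51 CPM in BM and 113, 109 and 167 CPM in MB at 9 DAP, against 238, 189 and 369 CPM in BM and 56.5, 49.7 and 356 CPM in MB at 7 DAP, so that the MB libraries at 9 DAP lay within the range of those at 7 DAP. The proton pyrophosphatases of the aleurone list, vpp1, vpp2 and vpp3, are not limited to that layer. vpp3 (GRMZM2G421857) rose by 0.70 ± 0.07 and held in each cross.

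The crosses differed in their change for 156 genes, and most of these stood apart at 7 DAP. Among them the 3 MB and 3 BM libraries did not overlap at 9 DAP for 79 genes (50.6%) and at 7 DAP for 144 genes (92.3%), where the shares over all genes tested were 14.2% at 9 DAP and 31.7% at 7 DAP. These shares come from the values that gave the interaction and describe it only. The change was larger in MB for 19 and in BM for 135 of them, and 62 had opposite signs in the crosses. Among the named genes some rose less in MB than in BM, some fell in BM and not in MB, and vpp1 rose more in MB.

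PPCK1 and SAD1 rose less in MB, and their levels in the crosses were close at 9 DAP and apart at 7 DAP. PPCK1 was at 19.3, 20.2 and 23 CPM in MB and 19.3, 23.6 and 24.9 CPM in BM at 9 DAP, and at 6.2, 8.99 and 8.69 CPM in MB and 1.91, 2.74 and 2.17 CPM in BM at 7 DAP. Its change was 1.45 in MB and 3.29 in BM (interaction -1.84 ± 0.25, adjusted p = 0.008). SAD1 was at 1590, 1460 and 1600 CPM in MB and 1790, 1650 and 1570 CPM in BM at 9 DAP, and at 717, 830 and 542 CPM in MB and 301, 318 and 277 CPM in BM at 7 DAP, a change of 1.21 in MB and 2.46 in BM. rf2d (GRMZM2G097706), an aldehyde dehydrogenase, was at 17.5, 14.6 and 21.9 CPM in MB and 16.9, 23 and 31.8 CPM in BM at 9 DAP, and at 24.8, 16.4 and 8.93 CPM in MB and 2.25, 2.55 and 1.38 CPM in BM at 7 DAP, a change that was not called in MB (0.17, adjusted p = 0.82) and was called in BM (3.50). act1 rose by 1.14 in MB and 1.84 in BM, pdk1 by 2.10 in MB and 3.43 in BM, and the vacuolar processing enzyme vpe1 (GRMZM2G463291) by 0.91 in MB and 1.61 in BM. HK1b1 (GRMZM2G155767), of the cytokinin receptor kinases, was not called in MB (0.41, adjusted p = 0.10) and rose by 1.48 in BM.

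Of the genes called in BM and not in MB, sod9 (GRMZM2G058522), sod4 (GRMZM2G169890) and sod2 (GRMZM2G025992) are superoxide dismutases of the copper and zinc type. sod9 was at 142, 140 and 101 CPM in MB and 110, 146 and 133 CPM in BM at 9 DAP, and at 87.5, 97.5 and 116 CPM in MB and 267, 289 and 295 CPM in BM at 7 DAP. The log2 fold changes of sod9, sod4 and sod2 were 0.41, 0.39 and 0.13 in MB, none of them called, and -1.15, -1.08 and -0.60 in BM, all called. gigz1b (GRMZM5G844173), a homologue of the clock gene GIGANTEA, was at 108, 135 and 108 CPM in MB and 66.6, 57.8 and 59.4 CPM in BM at 9 DAP, and at 91.8, 89.3 and 82.3 CPM in MB and 124, 135 and 118 CPM in BM at 7 DAP. It rose in MB (0.47, adjusted p = 0.024) and fell in BM (-1.06, adjusted p = 7e-06), with an interaction of 1.52 ± 0.14 (adjusted p = 0.00038). MUB3 (GRMZM2G409726), a ubiquitin gene, likewise rose in MB (0.46) and fell in BM (-0.32). These are 2 of 14 genes called in opposite directions in the crosses. The calreticulin gene crt2 (GRMZM2G358059) was not called in MB (-0.28) and fell by 1.13 in BM, and the ribosomal gene rpp2a-2 (GRMZM2G102891) was not called in MB (-0.29) and fell by 1.01 in BM. vpp1 (GRMZM2G069095) rose more in MB, by 1.30 against 0.39 in BM.

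**Figure D5:**
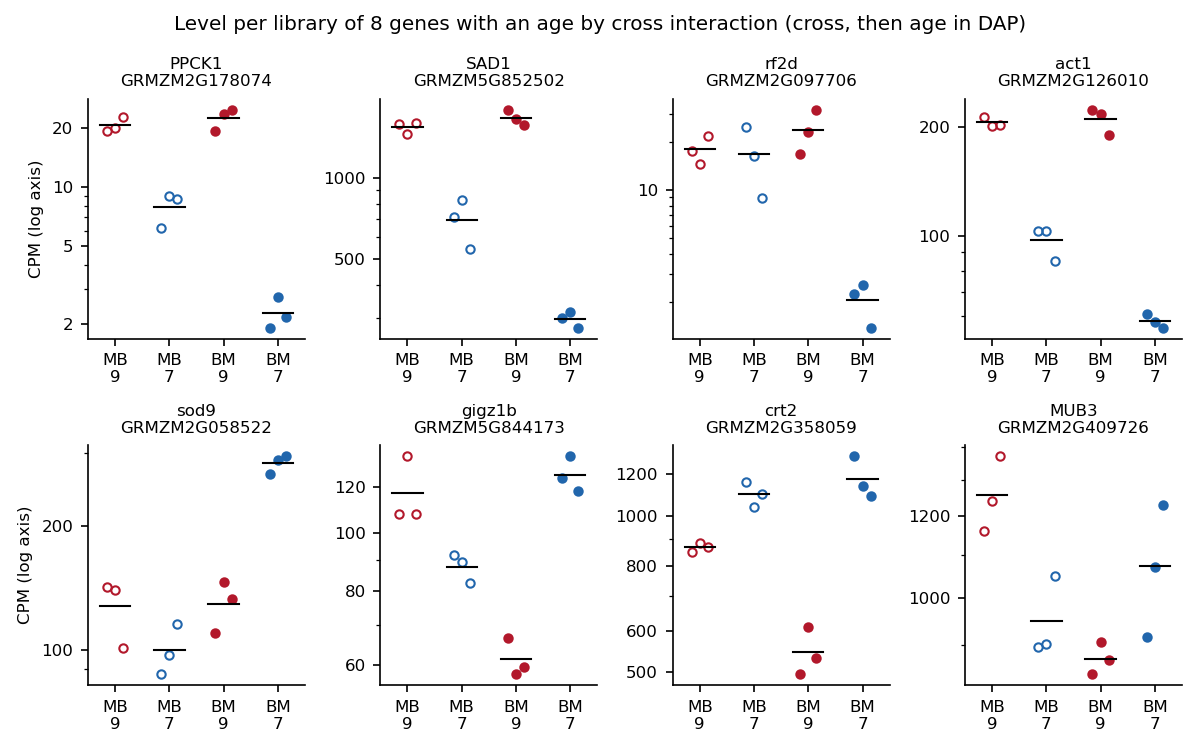
Level of 8 genes called in the interaction of age and cross in each library (CPM, log axes that differ between panels), for MB at 9 and 7 DAP and BM at 9 and 7 DAP. Points are replicates and bars are means. In the upper row MB and BM are alike at 9 DAP and MB lies above BM at 7 DAP, and in the lower row the crosses change by different amounts or in opposite directions.

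The number of interaction calls rested on single libraries. It was 527 without replicate 3 of MB at 7 DAP and 170 without replicate 3 of MB at 9 DAP, both of which stood apart. In each of the other 10 omissions it was between 34 and 73, lowest without replicate 1 of BM at 7 DAP. Of the genes named for the interaction, gigz1b, sod9, sod4, PPCK1, SAD1, vpp1 and crt2 were called in every omission, and sod2 in all but that of replicate 1 of MB at 7 DAP. The others lost the call in most of the 12 omissions: pdk1 in 11, HK1b1, thl1 and vpe1 in 10, act1 in 9, and rf2d, MUB3 and rpp2a-2 in 8. PPCK1, SAD1, gigz1b, vpp1, crt2 and sod2 lost the call in the fit over all 48 libraries.

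Few genes crossed the level of 1 CPM completely. At 9 DAP 35 genes had at least 1 CPM in all 6 libraries and less than 1 CPM in all 6 libraries of 7 DAP, and 28 of these held in each cross. The reverse was seen for 160 genes, of which 146 held. Over all genes tested 10.3% held. The 35 and 160 genes were picked by their separation in the same libraries, which favours a call, so the numbers that held describe them only. gst12 (GRMZM2G096269), of the glutathione S-transferases, was at 1.62 to 3.61 CPM at 9 DAP, against at 0 to 0.145 CPM at 7 DAP, where it had 3 reads in all. Nramp1 (GRMZM2G147560), of a family of metal transporters, was at 1.77 to 3.22 CPM at 9 DAP and at most 0.940 CPM at 7 DAP. The genes above 1 CPM at 7 DAP and below it at 9 DAP included 24 with a symbol, among them bHLH116, WRKY43, asn3, pht7, RR3, RR11, crr2, CUC2, zfl1 and ZIM4. Below about 1 CPM a library held few reads of a gene, so these counts say that a level passed the line and not that a gene was silent.

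The libraries of other ages did not enter these calls. Of the 983 genes that held as higher at 9 DAP, 881 (89.6%) had a higher mean at 11 DAP than at 5 DAP in both crosses, against 31.3% of all genes tested. Of the 1318 that held as lower, 1213 (92.0%) had a lower mean at 11 DAP than at 5 DAP in both crosses, against 41.2% of all genes tested. From 9 to 11 DAP, where the earlier libraries are those that entered the calls, means moved less uniformly. Of the genes that held as higher, 59.9% had a higher and 21.6% a lower mean at 11 DAP than at 9 DAP in both crosses, against 37.1% and 31.7% of all genes tested. Of those that held as lower, 31.2% had a higher and 31.6% a lower mean at 11 DAP, shares near those of all genes. The means of AGP2 were 91.7 CPM at 5 DAP, 87.5 CPM at 7 DAP, 461 CPM at 9 DAP, 911 CPM at 11 DAP and 1200 CPM at 13 DAP, with the means of 5 and 7 DAP close together. glb2 stood at 0.695, 2.02, 102, 351 and 801 CPM and mips2 at 119, 637, 1540, 1800 and 2040 CPM at the same ages. lpa1 (GRMZM5G820122) stood at 82.7, 165, 561, 514 and 737 CPM. On the falling side RR3 stood at 41.7, 7.59, 0.375, 0.706 and 0.927 CPM and TERT at 221, 54.2, 24.6, 10.4 and 11.2 CPM, both already lower at 7 DAP than at 5 DAP. kn1 had its highest mean at 7 DAP, with 39.1, 73.5, 34.4, 24.4 and 17.8 CPM, and bZIP17 likewise, with 8.91, 17.5, 0.638, 1.61 and 1.73 CPM. sh1 was lowest at 9 DAP, at 211, 345, 149, 283 and 225 CPM. These means were not tested against each other.

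Most genes that changed carry no symbol. Under the same rule as for named genes, 636 genes without one rose and 542 fell. The largest rises were those of GRMZM2G025959, at 195, 171 and 102 CPM in BM and 109, 152 and 87.2 CPM in MB at 9 DAP, against 0.957, 0.319 and 1.01 CPM in BM and 2.07, 5.84 and 1.11 CPM in MB at 7 DAP (6.24 ± 0.53, adjusted p = 1.6e-05), and of GRMZM2G112238 (6.02 ± 0.53). The largest falls were those of GRMZM2G301089 (-6.06 ± 0.46) and of GRMZM2G025133, at 0.769, 2.2 and 2.08 CPM in BM and 1.99, 1.73 and 1.85 CPM in MB at 9 DAP, against 117, 126 and 118 CPM in BM and 29.4, 24.2 and 84.9 CPM in MB at 7 DAP (-5.40 ± 0.46, adjusted p = 1.4e-05).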

How the data were processed

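Messenger RNA libraries of hand-collected embryos were sequenced on an Illumina HiSeq2500, per the labels. The authors deposited 1 table of 39656 gene models with raw read counts and FPKM (fragments scaled for transcript length and library size) for each library, per the file headers. The submitters' processing notes name FastQC, TopHat, HTSeq and Cufflinks 2.2.1. Genome build, annotation version, strand setting and treatment of reads that match several genes: not given in the sources used here. Near-identical or overlapping genes are therefore uncertain.

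Groups came from the sample titles. Genes were kept by filterByExpr (22316 of 32538 with a read), scaled by TMM and tested with edgeR 4.0.16 in R 4.3.3 (quasi-likelihood test, robust, Benjamini-Hochberg adjustment over all genes tested, threshold 0.05), with age and cross as terms, then in each cross alone, then with the interaction of age and cross (MB minus BM). The SE of a log2 fold change was taken from it and its F statistic. The scripts were tested on simulated data. CPM is a gene's count scaled to the library total, and values are mean ± SD over libraries. Intervals and p-values cover the spread between pools, and replicates are labelled as biological. Alternatives used RLE factors, DESeq2 1.42.0, other filters on low counts, limma 3.58.1 on log2(FPKM + 1) and log2(FPKM + 0.1) of genes with a mean of at least 1 FPKM, a replicate block, all 48 libraries, and each library left out.

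Genes were named from those with a mean of at least 10 CPM in the 12 libraries. For the change between ages, no overlap between ages and a change that held in each cross were also required. Of these, the 15 largest changes each way with a symbol and 2 each way without a symbol were taken. For the interaction, the 8 largest each way with a symbol and an adjusted p under 0.05 in its test were taken, without those further conditions. Members of gene lists were also named. These members and lists were chosen with earlier results of these data known. Symbols came from RefSeq and matched 18775 gene models (47.3%), of which 2595 had an informative symbol.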

Additional observations from a re-analysis of the deposited data

Results flagged for a closer look

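For 17 named genes the change between 9 and 7 DAP differed between the crosses by the test of the interaction. Each value is the log2 fold change in MB minus that in BM, from edgeR with 3 libraries a group. The difference was -3.32 for rf2d (adjusted p = 0.032), -1.84 for PPCK1, -1.33 for pdk1, -1.25 for SAD1, -1.07 for HK1b1, -0.76 for thl1, -0.71 for vpe1, -0.70 for act1 and -0.61 for me2. These genes rose less in MB, or, for rf2d and HK1b1, were not called in MB alone. It was 1.56 for sod9, 1.52 for gigz1b, 1.46 for sod4, 0.92 for vpp1, 0.84 for crt2, 0.78 for MUB3, 0.73 for sod2 and 0.71 for rpp2a-2. Of these, vpp1 rose more in MB, gigz1b and MUB3 rose in MB and fell in BM, and the other 5 fell in BM and were not called in MB. The calls of pdk1, HK1b1, thl1, vpe1, act1, rf2d, MUB3 and rpp2a-2 were lost in 8 to 11 of the 12 omissions of a single library, and in 2 to 4 of the other settings each. Those of PPCK1, SAD1, sod9, gigz1b, sod4, vpp1 and crt2 were lost in no omission, and that of sod2 in 1. Of the other settings, vpp1 and crt2 lost the call in 3 each, SAD1 in 2, and PPCK1, gigz1b and sod2 in 1 each. The fit over all 48 libraries was among these settings for each of those genes. The interaction of me2 was not recomputed under these settings.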

How the results depend on the processing

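Counts of calls moved with the threshold, the tool and single libraries. With a log2 change of 1 or more in size also required, 2522 genes were called with both crosses, 2785 in BM, 1210 in MB, 80 in the interaction and 1217 held in each cross. In 1 fit over all 48 libraries these counts were 4731, 3367, 1344, 22 and 1132. The interaction had 608 calls with DESeq2, 50 with limma on log2(FPKM + 1) and 69 on log2(FPKM + 0.1), where 1531 genes held in each cross. Rises were 35.7% of the BM calls in the fit over 48 libraries, against 47.1%, and 34.8% of the interaction calls on log2(FPKM + 0.1), against 48.7%. Leaving out 1 library at a time gave 7719 to 9395 calls with both crosses, 6112 to 7937 in BM, 1212 to 3584 in MB, 34 to 527 in the interaction and 1132 to 2724 that held. The number detected at 9 and not at 7 DAP ranged from 35 to 51, and the reverse from 164 to 198. With all libraries these were 35 and 160, and leaving out a library can only keep or raise them. Same-numbered replicates did not deviate together (r from -0.237 to 0.048 over the 6 pairs). Deviations from a mean of 3 libraries are tied to each other, so these values cannot settle whether the numbers pair the libraries. With the replicate block, 7620 genes were called with both crosses, 6506 in BM, 1978 in MB, 44 in the interaction and 1738 held. For the named genes, 3314 values kept their direction and side of the threshold, 203 lost and 14 gained the call, and none changed sign. The cause of these shifts was not tested. At these depths, genes below about 1 CPM rest on few reads.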
